A study of Mus musculus with 7 samples.

Results

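Cd5 and Cd6 are neighbouring genes on mouse chromosome 19 that encode paired surface receptors of T cells. All array rows that carry either gene name were taken: 2 genes of 34797 names, read by 3 of 55681 probes, and all 3 probes were measured on all 7 arrays. The pair was selected on its Lck-off minus WT difference in these same arrays, so its values in that comparison are given as a description, without a test. RNA came from lymph node CD8 T cells sorted as CD8b+ CD44low, of mice with the OT-1 T cell receptor transgene on 1 allele (OT-1het) and without Rag, a background in which T cells carry the transgenic receptor. In the Lck-off group (4 samples) the mice also lacked their own Lck gene (Lck-/-), and the doxycycline-dependent Lck copy that replaced it had been shut down by 7 days on a diet without the drug. The WT group (3 samples) had OT-1het and Rag-/- with its own Lck. Both groups shared OT-1het and Rag-/-, and their cells were frozen without activation. The sources used here do not give the age of the mice, the promoter of the inducible copy, the diet of the WT mice or whether a sample pooled animals. Genotype and loss of Lck differ together between the groups, and with the WT diet unknown, these and any effect of the diet cannot be told apart.

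CD5 and CD6 are built alike, with 3 scavenger receptor cysteine-rich (SRCR) domains outside the cell and a long tail rich in tyrosines inside it. They sit near the T cell receptor at the contact with another cell, Lck and other kinases phosphorylate their tails, and the tails then gather adaptors and inhibitors that restrain or shape the signal. The amount of CD5 on a naive T cell is widely used as a readout of how strongly its receptor is engaged by self ligands, since CD5 is set higher by stronger tonic signal. CD6 binds the adhesion molecule CD166, encoded by Alcam.

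The array reads Cd5 with 1 probe and Cd6 with 2, all on the minus strand in the mm9 build. They are shown because the 2 Cd6 probes do not read the same part of the transcript. The Cd5 probe lies at chr19:10792701-10792760, from base 1941 of transcript NM_007650. The first Cd6 probe, called the 3' probe here, lies at chr19:10863829-10863888, from base 2974 of NM_009852. The second spans chr19:10867422-10868678, from base 1536 of NM_009852, and its 60 bases cover 1257 bases of the genome, so that it crosses at least 1 intron. The array's own annotation assigns the 3' probe to both RefSeq variants of Cd6, and the intron-crossing probe to NM_009852 alone. The first 30 bases of the Cd5 probe and of the 3' probe, and the whole intron-crossing probe, read:
Cd5 probe: gaccagtggggttggctttctccttggact
Cd6 3' probe: agccaggctacagtggcctgtcctgagttc
Cd6 intron-crossing probe: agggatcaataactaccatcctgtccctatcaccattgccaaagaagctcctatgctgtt

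Cd5 and Cd6 RNA were both lower in Lck-off cells, near 50% of the WT level, on each of the 3 probes. Levels are log2 of the processed intensity over the 75th percentile of the same array, differences are Lck-off minus WT on that scale, and ± is the SD over 4 Lck-off or 3 WT arrays. Cd5 read 6.27, 6.06, 6.18 and 6.16 on the Lck-off arrays, against 7.25, 7.31 and 7.28 on the WT arrays. All Lck-off arrays lay below all WT arrays, and the gap between the nearest pair, 0.99, was 11.6 times the larger of the group SDs. The Cd5 level averaged 6.17 ± 0.08 in Lck-off and 7.28 ± 0.03 in WT, a difference of -1.12, or 46.2% of the WT level. These are bulk samples, in which fewer cells that carry a transcript and less of it per cell cannot be told apart.

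The 3' probe of Cd6 read 6.79, 6.85, 6.74 and 6.66 in Lck-off, against 7.67, 7.66 and 7.68 in WT. The WT arrays differed from each other by less than the Lck-off arrays did, and the groups were 0.81 apart at their nearest, 9.9 times the larger SD. The level was 6.76 ± 0.08 in Lck-off and 7.67 ± 0.01 in WT, a difference of -0.91, or 53.3% of WT. The intron-crossing probe of Cd6 read 1.95, 1.44, 1.79 and 1.77 in Lck-off, against 2.74, 2.81 and 2.93 in WT. It averaged 1.74 ± 0.21 in Lck-off and 2.83 ± 0.10 in WT, a difference of -1.09, or 47.0% of WT. On this probe the groups were 0.79 apart at their nearest, 3.7 times the larger SD. The Cd6 probes thus gave the same direction, and their differences were closer to each other than the SD of the intron-crossing probe in Lck-off. Groups that did not overlap, with Lck-off lower, were found for 12% of the 18231 genes measured, and for 21.8% in either direction, so the lack of overlap is not particular to the pair. By size of the difference, 195 genes (1.07%) lay below Cd5 and 333 (1.83%) below the 3' probe of Cd6, and the median over all genes was -0.01.

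**Figure D1:**
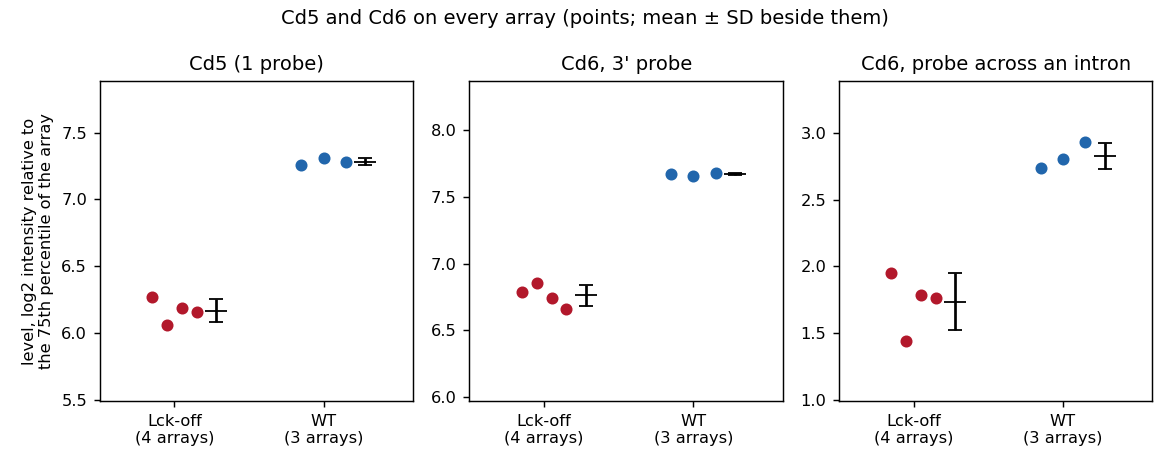
Level of Cd5 and of the 2 Cd6 probes on every array (log2 intensity relative to the array's 75th percentile; each panel spans the same range), with Lck-off arrays in red, WT arrays in blue, and the mean ± SD beside the points. In each panel the 4 Lck-off arrays lie below the 3 WT arrays, and Lck-off replicate 2 is the lowest point for Cd5 and for the intron-crossing Cd6 probe but the highest Lck-off point for the 3' Cd6 probe.

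Before scaling, the processed intensity of Cd5 was 17019, 14173, 17638 and 16578 in Lck-off, against 31745, 33372 and 36525 in WT. The 3' probe of Cd6 gave 24450, 24515, 26040 and 23486 in Lck-off, against 42478, 42480 and 48021 in WT. The groups were therefore apart before the arrays were scaled to each other, and no spot of the 3 probes was saturated, non-uniform or a population outlier. Array by array, the difference of Cd5 from its WT mean was -1.02, -1.22, -1.10 and -1.13 in Lck-off replicates 1 to 4. The same differences for the 3' probe of Cd6 were -0.88, -0.82, -0.93 and -1.01. Cd5 was further below its WT mean than the 3' probe on each of the 4 arrays, with a gap of -0.40 on Lck-off replicate 2 and of -0.17 to -0.11 on the others. For the intron-crossing probe of Cd6 they were -0.88, -1.38, -1.04 and -1.06, below Cd5 on Lck-off replicate 2 and above it on the other 3 arrays. Among the Lck-off arrays the intron-crossing probe thus had the same order as Cd5, while the array lowest for Cd5 was the least reduced for the 3' probe of Cd6. Within row 1 of the slide (2 Lck-off, 1 WT) the difference was -1.16 for Cd5 and -0.88 and -1.32 for the 3' and intron-crossing probes of Cd6. Within row 2 (2 Lck-off, 2 WT) it was -1.07, -0.94 and -0.91 in the same order. With any single array left out, the difference stayed between -1.15 and -1.08 for Cd5, between -0.94 and -0.87 for the 3' probe of Cd6, and between -1.16 and -0.99 for the intron-crossing probe.

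**Figure D2:**
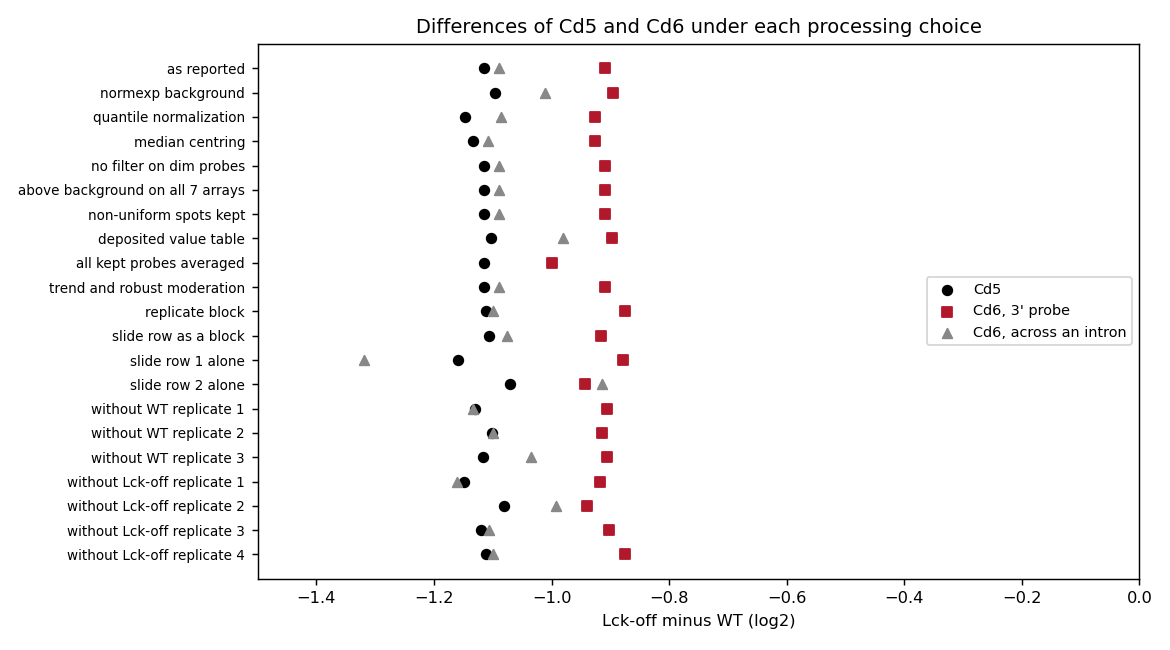
Lck-off minus WT difference (log2) of Cd5 and of both Cd6 probes, as reported and under each other processing choice, including each array left out in turn. Cd5 stays between -1.16 and -1.07 and Cd6 between -0.999, with its probes averaged, and -0.87, and the intron-crossing probe moves most, to -1.32 in row 1 of the slide, where 1 WT array is the comparison.

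The samples read as CD8 T cells. All 12 CD8 T cell markers were measured, 0 of 12 passed the limma test (lowest adjusted p = 0.065, for Cd8b1), and their summed level relative to the 75th percentile was 2283 to 2419 in Lck-off and 2268 to 2396 in WT. The B cell markers Ms4a1, Pax5 and Blk, of interest because B-1 cells also carry CD5, never rose well above background. Cd79a, Cd79b and Cd22 were measured and did not pass. Cd22 was 0.24 higher in Lck-off (adjusted p = 0.183 by limma), with groups that did not overlap. The summed level of the 7 B cell markers was 12.3 to 15.1 in Lck-off and 12.6 to 14.6 in WT. Most of that sum was Cd79b, and without Cd79b it was 0.797 to 0.997 in Lck-off and 0.76 to 0.885 in WT. Of 6 measured macrophage and neutrophil markers 1 passed (C1qb, higher by 0.59). The 11 such markers on the array summed to 6.12 to 8.95 in Lck-off and 4.33 to 7.01 in WT. Without Csf1r, the brightest of them, the sum was 2.15 to 4.53 in Lck-off and 1.31 to 2.05 in WT, with no overlap. Of 5 measured dendritic cell markers 0 passed. The dendritic cell markers on the array without Siglech, which read high on all arrays, summed to 1.93 to 8.28 in Lck-off and 1.16 to 2.98 in WT. Dntt, a gene of immature thymocytes, was higher by 2.23, while Rag1 and Ptcra never rose well above background and the thymocyte sum without Dntt was 0.107 to 0.203 in Lck-off and 0.0954 to 0.239 in WT. Of 4 CD4 and regulatory T cell markers Ikzf2 passed (-1.70), and their sum was 17.8 to 21.1 in Lck-off and 16.9 to 17.7 in WT. Most of that sum was Zbtb7b, and without Zbtb7b it was 4.4 to 5.66 in Lck-off and 4.46 to 5.61 in WT. NK cell markers were not measured, with sums of 0.0985 to 0.729 in Lck-off and 0.081 to 0.189 in WT. The part of these cells in the results was not tested. Lck itself read 8.52, 8.83, 8.60 and 8.55 in Lck-off, against 8.99, 9.02 and 8.98 in WT, and the difference of -0.37 (SE 0.09) had an adjusted p of 0.0493 by limma and an exact two-sided permutation p of 0.0571. The call was not made in 6 of the 7 fits on 6 arrays (adjusted p as high as 0.154). The altered stretch of Lck is not named in the labels, so the probe may lie outside it and check nothing.

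Around the pair, other features of the same short interval were also lower in Lck-off, some by more than Cd5 and Cd6 themselves. Of 18231 genes tested across the array by limma, 8.38% passed at an adjusted p under 0.05, 3.8% higher and 4.57% lower in Lck-off. Of the 35 measured features within 1 Mb of the pair, with Cd5 and Cd6 left out, 9 passed (25.7%), 5 higher and 4 lower. The median difference of the 35 was 0.05. Among the 9, A430093F15Rik, Vwce and Ms4a4d were kept for testing only through the group where they were higher, so the share partly reflects the filter. BB517238, also among the 9, has its probe 0.277 kb from that of Cd5, and whether it reads Cd5 was not tested. On the rest of chromosome 19, 45 of 562 features passed (8.01%). By steps of 5 Mb from Cd5, 25% of 40 features passed in the step to the telomeric side of Cd5, 9.56% of 136 in the step before it, and 33.3% of 24 in the step from 20 to 25 Mb away, so the neighbourhood was not the only stretch above the array's share.

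With the processing reported here, the interval between Cd5 and Cd6 held the furthest falls within 1 Mb. The RefSeq gene table places a long non-coding RNA gene, A430093F15Rik, between them, and it starts 1.97 kb from the start of Cd5, on the opposite strand, by the RefSeq promoter table (GRCm38.p6). Its probe, and an unannotated probe on the same plus strand 3.08 kb further on, are shown because little is known of what they read. In mm9 they lie at chr19:10857193-10857252 and chr19:10860328-10860386, the second 3.44 kb short of the 3' probe of Cd6, and read:
A430093F15Rik probe: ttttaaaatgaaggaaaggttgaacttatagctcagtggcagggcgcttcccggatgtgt
Unannotated probe A_55_P2040519: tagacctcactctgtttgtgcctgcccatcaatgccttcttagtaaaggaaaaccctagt

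The unannotated probe read 0.05, -0.71, -0.77 and -0.63 in Lck-off, against 2.75, 2.78 and 2.66 in WT. It fell by 3.24 on the log2 scale (SE 0.20, adjusted p = 0.00034 by limma), with no overlap between the groups and all 7 arrays well above background. A430093F15Rik was not well above background on any of the 4 Lck-off arrays and was on all 3 WT arrays. It was kept for testing only through the WT arrays, so its adjusted p (0.0369 by limma) is no independent support. The fall of A430093F15Rik is a bound, at least 2.26-fold lower in Lck-off. Its measured means were -5.12 ± 0.91 in Lck-off and -2.72 ± 0.73 in WT, and 5 of the 7 fits on 6 arrays did not call it (adjusted p as high as 0.116). With normexp A430093F15Rik differed by -0.57 and with the deposited matrix by -0.55, smaller falls than that of Cd5 (-1.10 with either). The unannotated probe differed by -2.71 and -2.64 in the same order. Another probe, annotated to an expressed sequence tag (BB517238), lies 0.277 kb from the Cd5 probe, on its far side from Cd6 and on the same minus strand. It read 0.41, -0.13, -0.13 and -0.05 in Lck-off, against 0.79, 1.04 and 1.25 in WT, and fell by 1.00 (SE 0.17, adjusted p = 0.0117 by limma). That is close to the difference of Cd5, -1.12, but the 60 bases of this probe hold a stretch of 17 bases repeated within them, and whether it reads the Cd5 transcript was not tested.

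**Figure D3:**
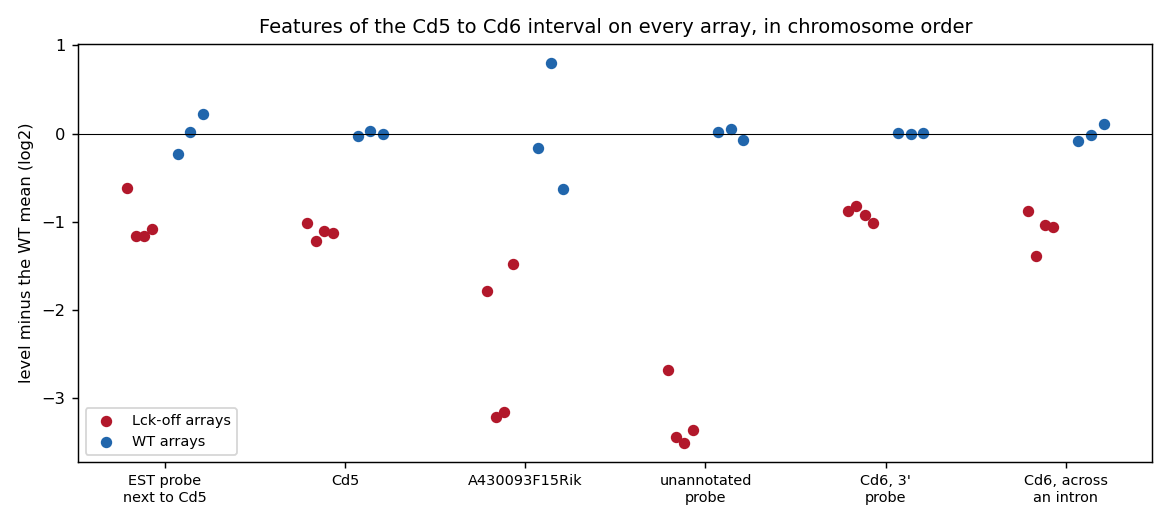
Level minus the WT mean (log2) on every array for Cd5, Cd6 and the features between or beside them, with Lck-off arrays in red left of WT arrays in blue. All 6 features have the Lck-off arrays below the WT arrays, by most at the unannotated probe, and A430093F15Rik is not well above background on the Lck-off arrays.

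The named genes just outside the interval did not pass as lower in Lck-off, though several had small differences below 0. On the Cd5 side, Vps37c, a subunit of the ESCRT-I sorting complex whose probe lies 4.49 kb from that of Cd5 (-4.49 kb), differed by -0.24 (adjusted p = 0.378 by limma). Within slide row 1 Vps37c differed by -0.49, and within row 2 by -0.07. Ddb1, of the UV damage and ubiquitin ligase complex, differed by -0.17 (adjusted p = 0.278), and Dak (now Tkfc), a triokinase gene, by 0.05 (adjusted p = 0.85). The groups of Ddb1 did not overlap, with Lck-off lower, as for 12% of all genes. Vwce, whose probe lies between those of Ddb1 and Vps37c, went the other way. It was well above background on all 4 Lck-off arrays and on no WT array, and at least 5.87-fold higher in Lck-off. As Vwce was kept for testing only through the Lck-off arrays, its adjusted p (0.00589 by limma) is no independent support. Beyond Cd6, Tmem132a (0.24), Tmem109 (-0.06), Prpf19, a splicing factor (-0.25), and Ccdc86 (-0.04) had adjusted p of 0.801, 0.757, 0.496 and 0.882. Prpf19 and Ccdc86 were each at 0.04 within row 2 of the slide, Ccdc86 also at 0.05 without WT replicate 3, and Tmem132a at -0.10 without Lck-off replicate 2.

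Further out, 5 features passed, 4 of them higher in Lck-off. AW112010 rose by 0.88 (SE 0.10, adjusted p = 0.0025), at 6.29, 6.41, 6.50 and 6.55 in Lck-off against 5.64, 5.65 and 5.39 in WT. In the cluster of Ms4a genes, which encode four-pass membrane proteins related to CD20, Ms4a6d rose by 1.67 (adjusted p = 0.00116 by limma) and Ms4a6c by 0.65 (0.00633). Ms4a4d was at least 2.11-fold higher, being not well above background in WT. It was kept for testing only through 3 Lck-off arrays, so its adjusted p (0.0119 by limma) is no independent support. The call of Ms4a4d was not made in 1 of the 7 fits on 6 arrays (adjusted p = 0.0532), with normexp (0.181) or with the deposited matrix (0.0553). Ms4a6c and Ms4a6d are also expressed in macrophages. The macrophage and dendritic cell sums given above had the higher ends in Lck-off, and the macrophage sum without Csf1r did not overlap between the groups. The part of such cells in these values was not tested. Ms4a4b, the T cell member of that cluster, differed by 0.23 (adjusted p = 0.253). Fads1, a fatty acid desaturase gene, fell by 0.28 (adjusted p = 0.0341), a call that 7 of 7 fits on 6 arrays did not make (adjusted p as high as 0.106).

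**Figure D4:**
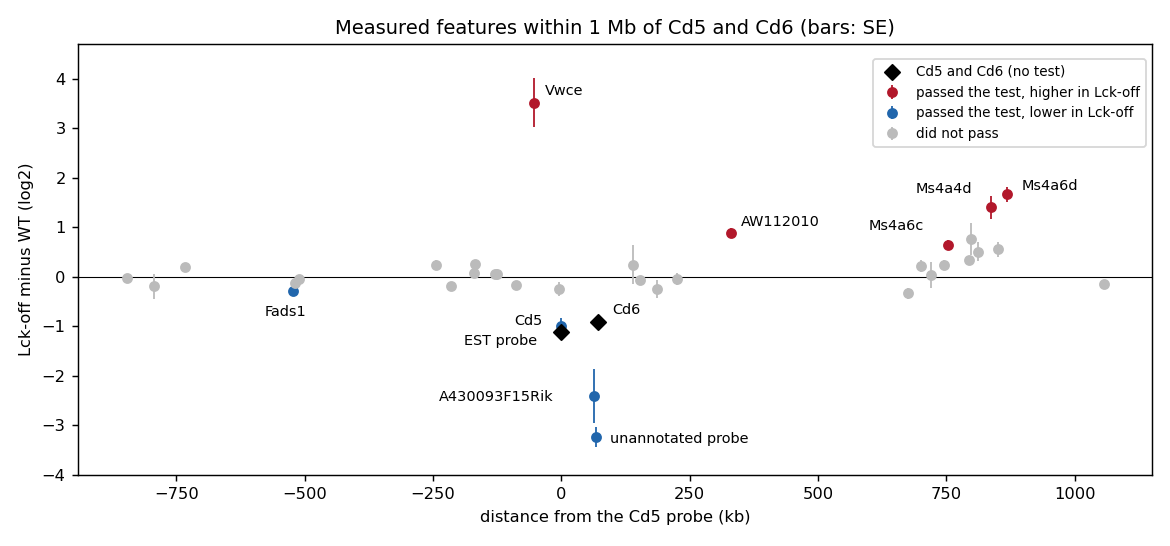
Lck-off minus WT difference (log2, bars are SE) of the features measured within 1 Mb of the pair against the distance of their probe from the Cd5 probe in kb, with features that passed the limma test in red (higher) or blue (lower), the others in grey, and Cd5 and Cd6 as black diamonds. The features that passed as lower in Lck-off lie together between Cd5 and Cd6, or beside Cd5, apart from Fads1 (-0.28). Vps37c (-0.24) and Ddb1 (-0.17) on one side, and Tmem109 (-0.06) and Prpf19 (-0.25) on the other, were also below 0 but did not pass.

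The promoter of Cd5 is shown because the gene is known to be driven by a promoter with sites for ETS factors, in mouse T cells ETS1 among them. The 250 bases before the start of Cd5 from RefSeq (GRCm38.p6, chr19:10738975-10739224, minus strand) read as follows, with matches to the ETS-type motif GGAA preceded by CA, GA or CC, on either strand, in capitals.
Cd5 promoter: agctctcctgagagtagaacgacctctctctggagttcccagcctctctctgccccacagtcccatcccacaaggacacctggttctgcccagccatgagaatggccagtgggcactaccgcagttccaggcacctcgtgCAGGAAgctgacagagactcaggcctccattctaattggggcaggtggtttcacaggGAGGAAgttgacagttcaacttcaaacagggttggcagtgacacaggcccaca

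The 2 matches start at -110 (CAGGAA) and -53 (GAGGAA) from the start of the gene. Of 32851 promoter windows of the same length, 25.7% hold CAGGAA and 23.3% GAGGAA on either strand, and 17% hold at least as many of the 3 motifs as Cd5 does, so these letters are common. The window holds the E box CAGGTG at -174 and -69, found in 17.2% of windows, and the RUNX-type motif TGCGGT at -133, found in 5.1%. Of the 18 measured transcription factors tied to promoters of this kind, 0 passed the limma test, with 6 of the 18 having groups that did not overlap, 3 of them lower and 3 higher in Lck-off, against 21.8% of all genes in either direction, and a list median of -0.06. Ets1 read 4.87, 4.71, 4.89 and 4.87 in Lck-off, against 5.05, 5.07 and 5.11 in WT, a difference of -0.24 (SE 0.07, adjusted p = 0.0942). Runx1 (0.60, adjusted p = 0.0639) and Gata3 (0.33, adjusted p = 0.0678) were the nearest to passing, both with the higher values in Lck-off, and both passed with normexp (adjusted p = 0.0247 and 0.0402) and with the deposited matrix (0.032 and 0.0436).

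Among molecules that CD5 and CD6 bind, 0 of 2 measured ligand genes and 4 of 27 intracellular partners passed, beside 8.38% of all genes. The gene lists were written with earlier results of these arrays known. Of 5 ligand genes, 2 were measured, and Cd72 (-0.18, adjusted p = 0.293) and Cdcp1 (0.10, adjusted p = 0.836) did not pass. Alcam, the ligand of CD6, was not measured, as it was not well above background on 3 arrays, and neither were Cd5l and Il6. Of 7 measured relatives with SRCR domains, only Lgals3bp passed, at 6.73, 6.89, 6.74 and 6.81 in Lck-off against 6.17, 6.41 and 6.28 in WT. Lgals3bp, a secreted galectin-binding protein, rose by 0.51 (SE 0.08, adjusted p = 0.0108), the opposite direction to Cd5 and Cd6. It did not pass with median centring (adjusted p = 0.117) or with no filter on dim probes (0.0698). Dmbt1 (1.44, adjusted p = 0.0678), Prss12 (0.76, adjusted p = 0.0879) and 5830411N06Rik (-1.11, adjusted p = 0.256) came next.

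Of 27 measured intracellular partners, 2 rose, 2 fell and 23 did not pass (14.8% passed, beside 8.38% of all genes, list median -0.02). Ptpn6, the phosphatase SHP-1 that docks on CD5, read 5.53, 5.56, 5.33 and 5.31 in Lck-off, against 6.01, 5.94 and 6.40 in WT. Ptpn6 fell by 0.68 (SE 0.13, adjusted p = 0.0209), and 2 of the 7 fits on 6 arrays did not call it (adjusted p as high as 0.0655). Lck, which phosphorylates both tails, is the other that fell. Grap2 (GADS), an adaptor that binds CD6, rose by 0.40 (adjusted p = 0.029), a call that 6 of those fits did not make (adjusted p as high as 0.114). Zap70, the kinase that follows Lck, differed by -0.20 (adjusted p = 0.225), Sdcbp (syntenin-1), which binds the CD6 tail, by -0.31 (adjusted p = 0.0881) and the adaptor gene Dok2 by -0.18 (adjusted p = 0.372). The ubiquitin ligase genes Cbl and Cblb, which act with CD5, differed by 0.09 and -0.01, and Lcp2 (SLP-76), the docking adaptor of CD6, by -0.06, none of them called. Some of these genes have other kept probes, dimmer than those given. These differed by 0.26 for Cblb, 0.51 for Lcp2 and -0.62 and 0.08 for Sdcbp, and by 0.28 for Grap2 and -0.19 for Zap70.

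Of 8 measured genes for receptor, coreceptor and costimulatory chains, 0 passed by limma, a list too short for its share to be set apart from the 8.38% of all genes. Cd3e read 8.02, 8.05, 8.02 and 7.99 in Lck-off, against 8.08, 8.01 and 8.08 in WT, a difference of -0.04 (SE 0.06). Cd2, an adhesion receptor that associates with CD5, differed by -0.06 (adjusted p = 0.707). Cd8b1 (0.25, adjusted p = 0.065), used in the sort, Cd28 (-0.49, adjusted p = 0.0717) and Cd8a (0.28, adjusted p = 0.146) were nearest to the threshold. Cd8b1 and Cd28 passed with normexp (adjusted p = 0.0461 and 0.0226) and with the deposited matrix (0.0418 and 0.0233). The groups did not overlap in 4 of the 8, Cd8b1, Cd8a, Cd28 and Cd247, of which Cd8b1 and Cd8a were the higher in Lck-off. For Cd247 the probe used differed by -0.22, and a dimmer kept probe by 0.23. Over all genes the groups did not overlap in 21.8%, in either direction, and 8 genes are too few to set apart from that share.

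Of 23 other measured surface receptors of T cells, 4 fell, 0 rose and 19 did not pass (17.4% passed, median -0.10). Over all genes 8.38% passed, 4.57% of them lower and 3.8% higher in Lck-off as shares of all genes. Cd7, a small receptor of the immunoglobulin family, read 4.26, 4.51, 4.13 and 4.22 in Lck-off, against 5.71, 5.71 and 5.58 in WT. It fell by 1.38 (SE 0.10, adjusted p = 0.000613 by limma). Cd200, the ligand of an inhibitory receptor, fell by 1.97 (adjusted p = 0.00555), with 3 of 4 Lck-off and 3 of 3 WT arrays well above background. Cd160, a receptor that binds HVEM, fell by 0.70 (adjusted p = 0.00287), and Spn (CD43) by 0.30 (adjusted p = 0.0404), which 6 of those fits did not call (adjusted p as high as 0.123). A dimmer kept probe of Spn differed by -0.07, and with its probes averaged Spn differed by -0.18 and did not pass (adjusted p = 0.246 by limma). Cd27 (0.38), Ly9 (0.28) and 4632428N05Rik (0.31, the VISTA gene, now Vsir) did not pass, with adjusted p of 0.0563, 0.0564 and 0.0602. Thy1 and Ptprc (CD45) differed by 0.01 and 0.05.

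Of 15 measured genes known to follow tonic receptor signal or the CD5 level, 6 fell, 1 rose and 8 did not pass. The share that passed was 46.7%, beside 8.38% of all genes, and the list median was -0.36. But this list was drawn up with those changes already known, so its count is no independent evidence. Genes that are higher in naive CD8 cells with more CD5 were among those that fell: Tbx21 (T-bet) by 0.95, Eomes by 0.86, Il2rb by 0.60 and Cd44 by 1.18. Cxcr3, also known to be higher in such cells, read 3.86, 4.55, 4.28 and 3.99 in Lck-off, against 3.70, 3.44 and 3.26 in WT. Its difference of 0.70, in the other direction, did not pass (adjusted p = 0.0659), but did with normexp (0.0172), median centring (0.0328) and the deposited matrix (0.024). For the 4 that fell the adjusted p were 0.0025, 0.00407, 0.0191 and 0.0105, and 4 of the 7 fits on 6 arrays did not call Il2rb (as high as 0.0608). Nkg7, a cytotoxic granule gene, fell by 0.78 (adjusted p = 0.00158), and Rasgrp1, which links the receptor to Ras, by 0.58 (adjusted p = 0.0237), which 6 of them did not call (as high as 0.0927). Ly6c1, whose protein runs opposite to CD5 in naive CD4 cells, read 8.21, 8.67, 8.36 and 8.34 in Lck-off, against 5.48, 5.63 and 4.90 in WT, and rose by 3.06 (adjusted p = 0.00035); Ly6 genes are close in sequence and their probes can share signal. The immediate reporters of receptor signal did not pass: Nr4a1 was 4.30 ± 1.55 in Lck-off and 3.72 ± 0.75 in WT, Egr2 -0.83 ± 0.38 in Lck-off and -0.40 ± 0.38 in WT. Nr4a2 (0.45), Egr1 (0.19) and Cd69 (0.48) did not pass either and, like Nr4a1, had the higher mean in Lck-off. Nr4a1 spread widely among Lck-off arrays, with an SD of 1.55 where that of Cd5 was 0.08. After Cxcr3, Folr4 (now Izumo1r, -0.36, adjusted p = 0.153) and Il7r (-0.21, adjusted p = 0.234) were nearest to passing.

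**Figure D5:**
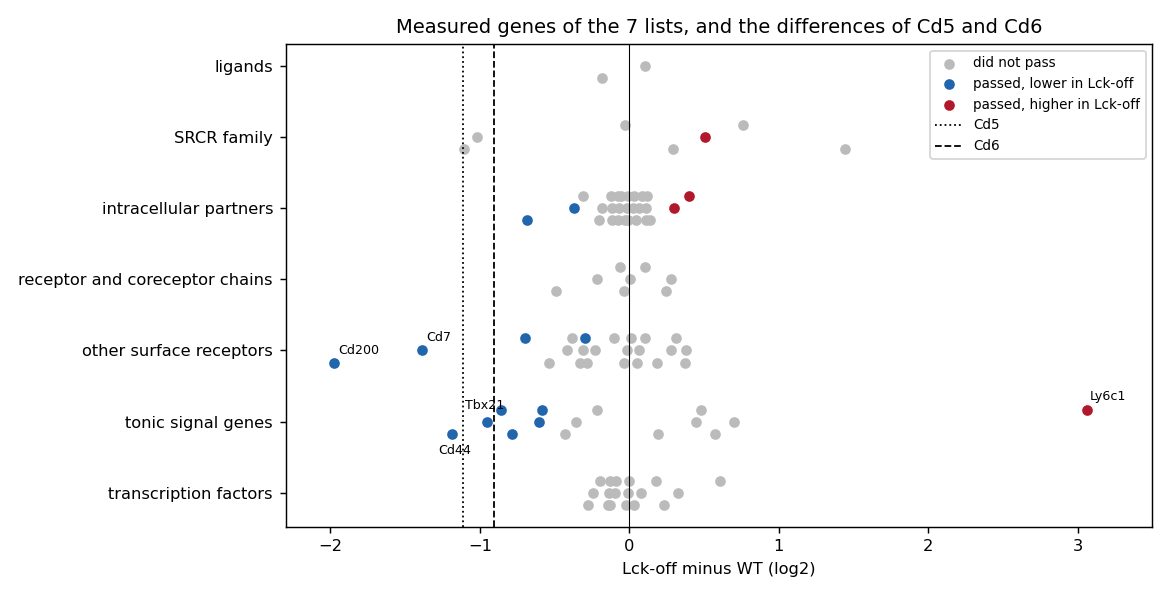
Lck-off minus WT difference (log2) of each measured gene in the 7 lists, in red (higher) or blue (lower) where it passed the limma test and in grey where it did not, with vertical lines at the differences of Cd5 (dotted) and Cd6 (dashed). Few genes of any list lie as far to the left as Cd5: Cd200, Cd7 and Cd44 do among those that passed.

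None of the genes named here as most like the pair over the 7 arrays lies within 1 Mb of it, though Cdc42ep2 is on chromosome 19. Likeness was Pearson's r of the levels over the 7 arrays, a description in which the gap between the groups sets most of the value. For Cd5 the closest included Mfhas1 (r = 0.9999), the calcium-permeable channel gene Trpv2 (0.999), Leprel4 (now P3h4, 0.997) and the Cdc42 effector gene Cdc42ep2 (0.996). Their differences between groups were -0.60, -0.38, -3.0 and -1.31. For Cd6 they were a transcript that the array lists as NAP028749-1 without a gene symbol (0.999), Raver2 (0.999), the mitochondrial thioredoxin reductase gene Txnrd2 (0.998), the actin-oxidising enzyme gene Mical1 (0.998) and Adam11 (0.997), with differences of -4.15, -1.56, -0.41, -0.78 and -0.98. Cd5 and Cd6 had r = 0.984 with each other, which put Cd6 at place 77 for Cd5 and Cd5 at place 76 for Cd6, so neither was the other's closest match.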

How the data were processed

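RNA of 4 Lck-off and 3 WT samples was hybridised to 7 single-colour Agilent arrays (design 028005) on 1 slide. Feature Extraction 10.7.3.1 gave the deposited intensity values, with probes placed on mm9, per the file headers. Its processed intensity has background and spatial trend removed array by array, and mean spot and local background intensity do not. Flags and spot types came from the same output. The values show that the deposited matrix is in log2. Limma is named in the submitters' processing notes, without its steps.

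From these, log2 processed intensity was taken relative to each array's 75th percentile. Non-uniform spots were dropped, repeated spots averaged, and a probe kept if 3 or more of 7 arrays had it well above background (25578 of 55681). A gene is its brightest kept probe (18231 genes), and 68.3% of these matched a current symbol in RefSeq (GRCm38.p6), used for names and gene order alone. All genes were fitted with limma 3.58.1 (R 4.3.3), Benjamini-Hochberg adjusted over all genes, two-sided. Where no array of a group had a gene well above background, its fold is a lower bound, set by the higher of its own signal and the lowest signal well above background on each of those arrays. The series' design calls the samples biological replicates and names no animals. Arrays had 75th percentiles of 208 to 243 in intensity, between 42.5% and 48.6% of probes were well above background, no spot was saturated, and the number of arrays limits the precision. Scripts were tested on simulated data.

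The members and the lists were chosen with earlier results of these data known. Named genes were Lck, the list genes that passed, the 3 nearest to passing in each list, all measured ligands, the 5 nearest measured features on each side of the pair and those between, all that passed within 1 Mb, and the 5 most alike by r; other genes given with a value were chosen after their values were seen. A few genes that this rule or the marker lists name are not reported here. Alternatives were background correction, scaling, filters, the deposited matrix, averaged probes, moderation, blocks, slide rows alone and each array left out. The labels do not say whether replicate numbers pair the samples. Deviations of same-numbered arrays from their group means had correlations of 0.106, 0.0493 and -0.00831, and those of arrays with unlike numbers ran from -0.174 to 0.138. Such weak values on so few arrays cannot show or exclude a pairing.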

Additional observations from a re-analysis of the deposited data

Results flagged for a closer look

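Of 55 named features tested among the 4 Lck-off arrays, 4 had 1 array far from the other 3, by the gap to the nearest array over the whole range (above Dixon's critical value), where chance alone would pick about 1 in 20. Spn had a ratio of 0.858, at 6.37 on Lck-off replicate 1 against 6.24, 6.26 and 6.25. Cd27 had 0.926, at 4.30 on 1 array against 4.05, 4.06 and 4.06. Ets1 had 0.877, with Lck-off replicate 2 at 4.71 against 4.87, 4.89 and 4.87. The expressed sequence tag probe BB517238 beside Cd5 had 0.857, with Lck-off replicate 1 at 0.41 against -0.13, -0.13 and -0.05.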

How the results depend on the processing

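Cd5 and both Cd6 probes kept their direction under each alternative run. The Cd5 difference ranged from -1.16 to -1.07, that of Cd6 was -0.999 with its probes averaged and -0.94 to -0.87 with any array left out, and its intron-crossing probe gave -1.32 in slide row 1 alone and -1.16 to -0.99 with any array left out. Counts of calls moved more. Of 18231 genes, 1527 were called as reported, 918 with median centring, 717 with no filter on dim probes (34797 names tested), 374 with the replicate block, 105 in slide row 1 alone, 0 by limma in slide row 2 alone (2711 at an unadjusted p under 0.05) and 960 to 1405 with any array left out, the lowest without WT replicate 2. List genes called, 16 as reported, were 27 with normexp, 10 with median centring, 8 with no filter, 29 with the deposited matrix, 31 with trend and robust moderation, 4 with the replicate block, 1 and 0 in slide rows 1 and 2, and 9 to 16 with any array left out. The 9 called within 1 Mb became 3 with the replicate block, 2 and 0 in slide rows 1 and 2, 6 to 9 with any array left out, and 7 over names with a current symbol, an alternative chosen after seeing the data. Whether replicate numbers pair the samples is not stated in the labels. With the block Cd5 was at -1.11 and Cd6 at -0.87. Of 25 named genes that passed, 15 passed in all 7 fits on 6 arrays. With median centring 9 of the 25 did not pass, among them Lgals3bp, Ptpn6, Lck, Grap2, Spn, Il2rb, Rasgrp1 and Fads1; with no filter 11 did not, A430093F15Rik and BB517238 besides. Genes that did not pass and changed sign were Cdcp1 (-0.073 in slide row 2, -0.059 to 0.20 with any array left out), Prpf19 (0.037 in slide row 2), Ccdc86 (0.038 in slide row 2, -0.098 to 0.053 with any array left out), Dak (-0.047 to 0.14) and Tmem132a (-0.099 to 0.48). The cause was not tested. Differences of dim genes shrank with normexp: Vwce to 1.07, A430093F15Rik to -0.57 (adjusted p = 0.0501), Cd200 to -0.81, Cd44 to -0.71 and Ms4a4d to 0.25 (adjusted p = 0.181).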
